A study of Mus musculus with 4 samples.

Results

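Mouse chromosome 7 was measured in liver tumours by array comparative genomic hybridisation, in which tumour DNA and control DNA in different dyes compete for the same 60-base probes. The region described here is chromosome 7 outside a central interval around Fah, the knocked-out gene that encodes the last enzyme of tyrosine breakdown. Its members were all probes on chromosome 7 whose midpoint lay below position 66700000 or above position 116700000 of the mouse build mm9. They numbered 6198 of the 170305 probes measured: 3255 in a proximal block (chr7:3131659-66601308) and 2943 in a distal block (chr7:116701559-152520747). The rule used positions alone, and it was chosen with earlier results of these data known. Liver tumours came from 4 mice of the genotype FAH-/- Trp53-/-, labelled male and numbered 239, 240, 244 and 252, and the control was a pool of liver DNA from 3 male-labelled FAH+/+ Trp53+/+ littermates. Drinking water held 7.5 mg per L of NTBC, the drug that blocks tyrosine breakdown upstream of Fah, and the labels give a regimen of 2.5% of that dose for 6 months. All 4 arrays used the same pool, so that agreement between tumours includes whatever was particular to it, and the spread among control livers does not enter any test.

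In a comparative hybridisation a log2 ratio of tumour over pool near 0 means that both carry the same dose of a stretch of DNA relative to the rest of the genome. A single-copy gain in every cell of a diploid tumour would give 0.58 and a single-copy loss -1, and admixed normal cells or a higher ploidy bring both nearer to 0. Bulk DNA does not tell a change in few cells from a smaller change in all cells. The proximal block carries the Peg3 imprinted cluster, many cytochrome P450 genes of the Cyp2 families, and Ube3a, a gene of the region imprinted in Prader-Willi and Angelman syndromes. The distal block carries the imprinted Igf2 and Kcnq1 cluster, which governs fetal growth and is disturbed in many tumours, and the stretch homologous to human 11q13. That stretch holds Ccnd1, which encodes cyclin D1, the partner of CDK4 and CDK6 in G1, and Fgf15, the mouse counterpart of human FGF19, a hormone that lowers bile acid synthesis.

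The probes on which single-locus statements rest are printed from the deposited files, 5′ to 3′. The first set are the only probes named for Igf2, Fgf15 and Ccnd1, the growth genes for which the distal end is known; a statement on any of these genes rests on these 60 bases.
Igf2, chr7:149841807-149841866: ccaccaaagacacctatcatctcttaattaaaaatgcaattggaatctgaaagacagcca
Fgf15, chr7:152084123-152084182: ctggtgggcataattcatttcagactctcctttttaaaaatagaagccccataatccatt
Ccnd1, chr7:152119601-152119660: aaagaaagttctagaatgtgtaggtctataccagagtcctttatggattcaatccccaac

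A second set stood far from 0 in all 4 tumours at once, with signal well above background in both dyes on every array. They lie in Nell1, Luzp2, Tead1 and Xylt1.
Nell1, chr7:57871812-57871871: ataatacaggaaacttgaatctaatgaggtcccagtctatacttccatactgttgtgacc
Nell1, chr7:58005937-58005996: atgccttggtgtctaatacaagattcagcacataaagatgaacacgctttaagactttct
Luzp2, chr7:62220250-62220309: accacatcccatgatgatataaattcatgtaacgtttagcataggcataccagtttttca
Tead1, chr7:120007790-120007849: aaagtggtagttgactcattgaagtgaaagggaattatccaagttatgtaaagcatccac
Xylt1, chr7:124560719-124560778: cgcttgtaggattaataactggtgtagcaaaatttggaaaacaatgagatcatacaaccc
Xylt1, chr7:124676042-124676101: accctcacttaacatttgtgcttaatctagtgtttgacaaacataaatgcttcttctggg
Xylt1, chr7:124796689-124796748: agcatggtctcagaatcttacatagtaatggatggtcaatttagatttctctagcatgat

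Another set was low in tumour 244 alone. The files give no gene name for the first, and the second carries the transcript name ENSMUST00000128805.
Unnamed, chr7:66458812-66458871: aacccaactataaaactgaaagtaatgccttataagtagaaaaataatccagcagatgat
ENSMUST00000128805, chr7:134611192-134611251: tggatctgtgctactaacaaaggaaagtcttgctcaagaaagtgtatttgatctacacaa

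Tumour 252 went against its male label. Its median log2 ratio was 0.73 over X and -2.43 over Y, and the levels and differences of the blocks are therefore also given without it. Tumour 244 had medians of -0.30 over X and -1.20 over Y. Probe-to-probe noise was least on the array of tumour 239 (SD 0.25) and ran from 0.31 to 0.35 on the others, and 97.5% of the members were well above background in both dyes on every array. All 4 arrays lay on 1 slide and 1 scan, so no batch could be compared.

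Chromosome 7 outside the Fah interval lay close to 0 in 3 tumours and below 0 in tumour 244. Its mean log2 ratio was 0.0019 in tumour 239, 0.025 in tumour 240, -0.21 in tumour 244 and 0.010 in tumour 252. Tumour 244 was apart from the other 3, which lay just above 0. The average over the 4 tumours was -0.042 ± 0.11 (SD, n = 4; exact two-sided sign-flip permutation test against 0, p = 1). With 4 tumours this test cannot go below 0.125. Without tumour 244 the average was 0.013, on the other side of 0, and without tumour 252 it was -0.060. Within tumour 244, 6 of the other 18 autosomes had a lower mean and 12 a higher one, between -0.39 and 0.35. When each array was centred on the mode of its autosomal probes in place of the median, the members of tumour 244 averaged -0.31. The zero line of that array was the least certain of the 4, since its mode lay 0.105 above its median.

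The distal block was higher than the proximal block in every tumour. Distal minus proximal came to 0.086, 0.044, 0.047 and 0.073 in tumours 239, 240, 244 and 252. The mean of these 4 differences was 0.063 ± 0.021 (SD). The exact sign-flip test gave p = 0.125, the smallest value it can give, and 0.375 after Benjamini-Hochberg adjustment over the 6 such tests made. The proximal block averaged -0.039, 0.0047, -0.23 and -0.024 in tumours 239, 240, 244 and 252, and its overall mean was -0.072 ± 0.11 (SD, n = 4; exact sign-flip test, p = 0.25). The distal block averaged 0.047, 0.048, -0.18 and 0.049 in the same order of tumours. Its overall mean was -0.0095 ± 0.12 (SD, n = 4; exact sign-flip test, p = 1). Leaving out tumour 244 turned the mean of the distal block to 0.048, and leaving out tumour 252 gave -0.029. Without tumour 252 the proximal block averaged -0.088, and distal minus proximal averaged 0.059.

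**Figure D1:**
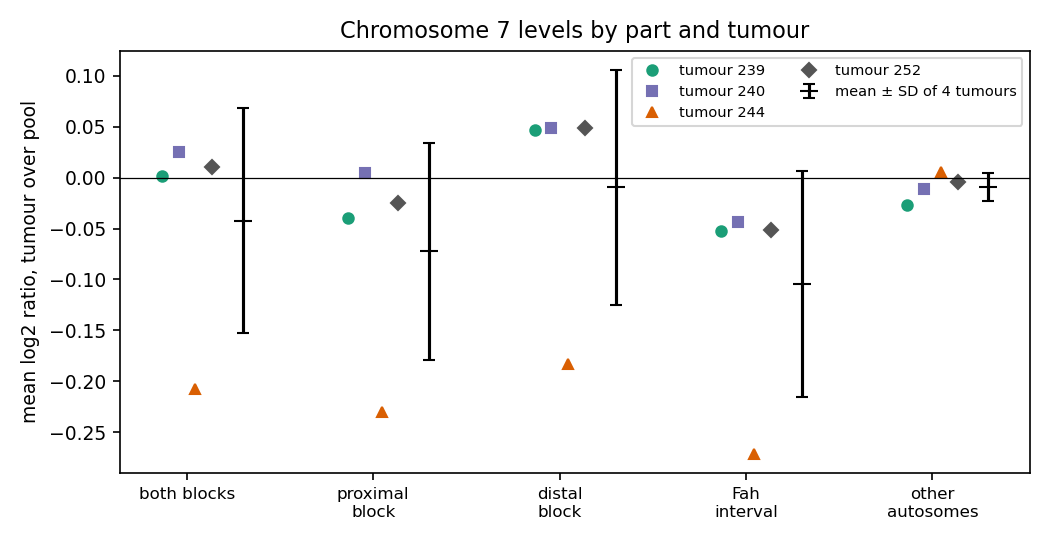
Mean log2 ratio of tumour over pool (y axis) for both blocks together, the proximal block, the distal block, the Fah interval and the other autosomes (x axis); each symbol is 1 tumour and the bars are the mean ± SD of the 4 tumours. Tumour 244 is the lowest in all 4 groups of chromosome 7 probes, and in each tumour the distal block lies above the proximal block.

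A distal end higher than the rest of its chromosome was not found on chromosome 7 alone. When the last 35.8 Mb of each of the 19 autosomes, the length of the distal block, was set against the rest of that chromosome, the difference on chromosome 7 was 0.093, 0.069, 0.069 and 0.087 in tumours 239, 240, 244 and 252. Its mean of 0.080 ranked 1 of the 19, and chromosomes 2 and 4 followed with 0.074 and 0.071. These are descriptions with no test. The mean GC content of the probes was 36.9% in both blocks, and the difference between the blocks was 0.064 after a correction for probe and regional GC. With normexp background correction the difference between the blocks averaged 0.032, with 0.058, 0.011, 0.019 and 0.042 in tumours 239, 240, 244 and 252.

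The chromosome was divided into 8 stretches named for the human chromosome arm that each resembles in gene order. Their means decreased from the first stretch to the interval and increased from the interval to the last stretch, which ends at 152119660. The last 19 probes (chr7:152195514-152520747) lie beyond it and averaged -0.049, -0.044, -0.25 and -0.027 in tumours 239, 240, 244 and 252. Within the 19q-like stretch the level did not fall steadily. Over the 4 tumours, chr7:6700775-11351104 averaged -0.12 and chr7:26706847-31690194 averaged -0.015. Nearest to the interval on its proximal side, the 15q-like stretch (chr7:63053944-66601308, 276 probes), which holds Atp10a, had the lowest mean of the 8, at -0.12 ± 0.11 (SD, n = 4). Its values were -0.074, -0.041, -0.29 and -0.075 in tumours 239, 240, 244 and 252. Taken as medians over probes they were -0.0069, 0.0019, -0.27 and -0.035. Those medians averaged -0.078, against -0.077 in the proximal 11p-like and -0.053 in the 19q-like stretch. The 11p-like stretch before it (chr7:53363024-62513418, 591 probes), with Nell1 and Luzp2, averaged -0.11 ± 0.11. The 19q-like stretch (chr7:3131659-53076775, 2336 probes), which carries the Cyp2 genes, averaged -0.057 ± 0.11. In that stretch tumour 240 was above 0, at 0.024, and the other 3 were below 0.

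On the distal side the 11p-like stretch next to the interval (chr7:116701559-123581548, 578 probes) averaged -0.055 ± 0.12, and the 16p-like stretch (chr7:124531115-135290899, 887 probes) averaged -0.033 ± 0.12. The 10q26-like stretch (chr7:137307287-147956551, 861 probes), from Fgfr2 to Cyp2e1, averaged 0.031 ± 0.12. The 11p15.5-like stretch (chr7:148485473-150927081, 222 probes), from Deaf1 to Osbpl5 and with Igf2 in it, averaged 0.036 ± 0.12. The 11q13-like stretch (chr7:151014887-152119660, 99 probes), from Dhcr7 to Ccnd1, had the highest mean of the 8, at 0.067 ± 0.11 (SD, n = 4 throughout). Its values were 0.12, 0.12, -0.099 and 0.13 in tumours 239, 240, 244 and 252. It lay above the 15q-like stretch by 0.19, 0.16, 0.19 and 0.20 in tumours 239, 240, 244 and 252, and by a mean of 0.14 to 0.19 under 9 other ways of processing the values. Of these ways, centring on the mode cannot change a difference within an array, and the authors' value table repeats the same ratio. These differences between stretches were not tested. The 11q13-like and 15q-like stretches were set against each other as the highest and lowest of the 8 means. Their mean difference was therefore above 0 by choice. With normexp background correction the distal stretches averaged -0.097, -0.12, -0.042, -0.10 and -0.025 in chromosome order. With GC correction they averaged -0.054, -0.049, 0.018, 0.0046 and 0.018. The side of 0 on which they lie thus depended on the background correction, and the order among them on either correction. The 11q13-like stretch, with a mean probe GC of 37.4%, remained the highest distal stretch and above the 15q-like stretch. With GC correction its lead over the 10q26-like stretch was small, 0.0182 against 0.0176.

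**Figure D2:**
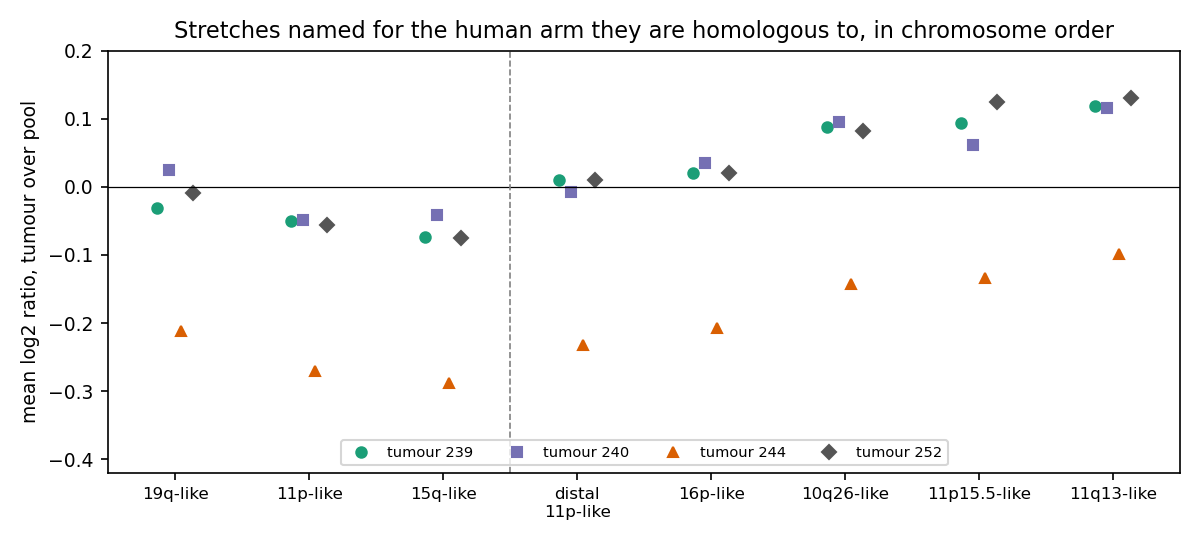
Mean log2 ratio of tumour over pool (y axis) for 8 stretches of chromosome 7 in chromosome order (x axis), 1 symbol per tumour, with a dashed line where the Fah interval was taken out. The 11q13-like stretch is the highest of the 5 distal stretches in each tumour, and tumour 244 is the lowest tumour in every stretch.

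The region outside the interval was also higher than the interval itself in all 4 tumours, but not where region and interval meet. Outside minus inside came to 0.054, 0.069, 0.063 and 0.062 in tumours 239, 240, 244 and 252. These averaged 0.062 ± 0.0059 (SD, n = 4; exact sign-flip test, p = 0.125, adjusted p = 0.375). Restricted to the 5 Mb on each side of the interval's edges, the values were 0.025, -0.0035, -0.013 and 0.016, with a mean of 0.0063 and no shared sign. Taken as medians over probes the difference averaged 0.032, with GC correction 0.037 and with normexp 0.035. Probes at -1 or lower in all 4 tumours made up 0.629% of the members, against 1.98% of the interval and 0.603% of the other autosomes, and without all such probes, high ones included, the difference averaged 0.035. Against the other autosomes the members differed by 0.029, 0.037, -0.21 and 0.015 in tumours 239, 240, 244 and 252 (mean -0.033 ± 0.12, SD, n = 4; exact sign-flip test, p = 1). Without tumour 244 that mean was 0.027, and without tumour 252 it was -0.049. Outside minus inside the interval averaged 0.062 without tumour 252.

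Circular binary segmentation, which splits a chromosome into runs of probes at 1 level, gave long segments in every tumour. A segment was called lost at a mean of -0.2 or lower and gained at 0.2 or higher. In tumour 244 the proximal block was called lost throughout, from the first probe to 46772873 at -0.20 and from 46895145 into the interval at -0.26, with 5 probes between them (chr7:46787372-46843232) whose median was -0.80. These 5 include the probe at 46843173, whose tumour signal was well above background on 0 of 4 arrays, and the other 4 averaged -0.37. The distal block of tumour 244 lay in 1 segment at -0.18, just short of the threshold. The share of members called lost was thus 52.5% in tumour 244 (3255 of 6198 probes), against 1.65% in tumour 239, 0.242% in tumour 240 and 0% in tumour 252. The other autosomes had 33.0%, 6.42%, 2.01% and 4.65% of probes called lost in tumours 244, 239, 240 and 252. With a threshold of 0.1, centring on the mode, normexp or a lowess on intensity, 100% of the distal probes of tumour 244 were called lost. With a threshold of 0.3, 0.0807% of its members were, so the share in tumour 244 depended on where the threshold lay.

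No long stretch of the region was gained in any tumour. Called gains covered 15 probes (0.242%) in tumour 239, 5 probes (0.0807%) in tumour 240 and 0 probes in tumours 244 and 252. Tumour 252 had 1 segment across each block, at -0.024 from the first probe into the interval and at 0.047 over the distal block. Tumour 239, the array with the least noise, was divided most finely, into 14 segments. One of them (chr7:124537999-124586779, 6 probes inside Xylt1) averaged 0.77 in tumour 239, and the same probes averaged 0.63, 0.36 and 0.49 in tumours 240, 244 and 252. The probe at 124560719 printed above lies in it and raised these means. The medians of the 6 probes were 0.46, 0.29, 0.074 and 0.16 in tumours 239, 240, 244 and 252. Another (chr7:37637857-37983646, 11 probes beside Tshz3, a zinc finger gene) averaged -0.53 in tumour 239 and -0.47, -0.73 and -0.55 in tumours 240, 244 and 252. A further segment (chr7:48626235-49701546, 81 probes), from AI987944 to 4933421I07Rik, averaged -0.23 in tumour 239 and -0.072, -0.32 and -0.19 in tumours 240, 244 and 252. In these 3 segments the other tumours lay on the same side of 0 as tumour 239. In a called gain at chr7:46717792-46826502 (9 probes) they did not all do so: tumour 239 averaged 0.31 and tumours 240, 244 and 252 averaged 0.21, -0.11 and 0.17. The medians of those 9 probes were 0.074, 0.075, -0.30 and -0.031 in tumours 239, 240, 244 and 252. Tumour 239 also had called losses of 5 probes each on both sides of that gain. At chr7:46519383-46704047 the means were -0.92, -0.86, -1.02 and -0.83 in tumours 239, 240, 244 and 252. The medians there were -0.79, -0.56, -0.75 and -0.37. At chr7:46843173-47054703 the mean in tumour 239 was -0.98, but 0.14 without the probe at 46843173. Segment edges in the region fell in or next to Tshz3, ENSMUST00000073220, Pop4, A230077H06Rik, 1700110I07Rik, AI987944, 4933421I07Rik, ENSMUST00000174407, Zfp939, Nell1, Luzp2, Xylt1 and Ccnd1.

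When 1 Mb bins were tested against 0 with limma over 2538 bins of all autosomes and X, 4 of the 88 bins of the region passed an adjusted p of 0.05. All 4 were lower in the tumours than in the pool and lay in the proximal block. That is 4.55% of the region's bins, against 8.47% of all bins tested called lower, and 0% of the region's bins against 4.61% of all bins called higher. At an unadjusted p of 0.05, 20 of the 88 bins were lower and 1 was higher. No share of all bins was worked out at that threshold, so such counts, here and below, have no baseline. The bin from 46000001 averaged -0.42 ± 0.12 (SD, n = 4; limma adjusted p = 0.016), with -0.36, -0.35, -0.61 and -0.36 in tumours 239, 240, 244 and 252. It borders the widest stretch without probes in the region, 7.42 Mb before 46519383, and holds 17 probes, 5 of which lay beyond 1 log2 unit from 0 in all 4 tumours. The tumour signal of 1 of these, at 46843173, was well above background on 0 of 4 arrays, so its ratio of -5.06 is only a bound. Over the 16 probes well above background the bin averaged -0.13 and did not pass (limma adjusted p = 0.20). The bin from 60000001 averaged -0.34 ± 0.098 (adjusted p = 0.016), the bin from 15000001 averaged -0.27 ± 0.059 (adjusted p = 0.016), and the bin from 10000001 averaged -0.22 ± 0.087 (adjusted p = 0.035). All 4 tumours were below 0 in each of them. Without probes beyond 1 log2 unit in all 4 tumours the bin from 60000001 averaged -0.18 and did not pass (limma adjusted p = 0.078).

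With each tumour left out in turn, the bin from 46000001 averaged between -0.44 and -0.36, and the bin from 15000001 between -0.29 and -0.25. Without tumour 239 limma passed 0 bins of the region and 0 of all 2538, with 11 bins of the region lower and 0 higher at an unadjusted p of 0.05. Without tumour 240 the count was 2 (3.82% of all bins were called), and without tumour 252 it was 3 (6.66% of all bins). Without the probes beyond 1 log2 unit in all 4 tumours it was 2 (10.3% of all bins). With bins of 5 Mb it was 0 of 20 (9.72% of all 535), with 2 lower at an unadjusted p of 0.05. Without tumour 244, the 3 remaining tumours lay closer together, and 907 of the 2538 bins passed. In the region 15 bins were then higher, 11 of 36 in the distal block and 4 of 52 in the proximal block, and 17 were lower, all in the proximal block. The shares over all bins in that fit were 12.3% higher and 23.4% lower. The 11 distal bins lay between 132 and 152 Mb and averaged 0.074 to 0.15.

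**Figure D3:**
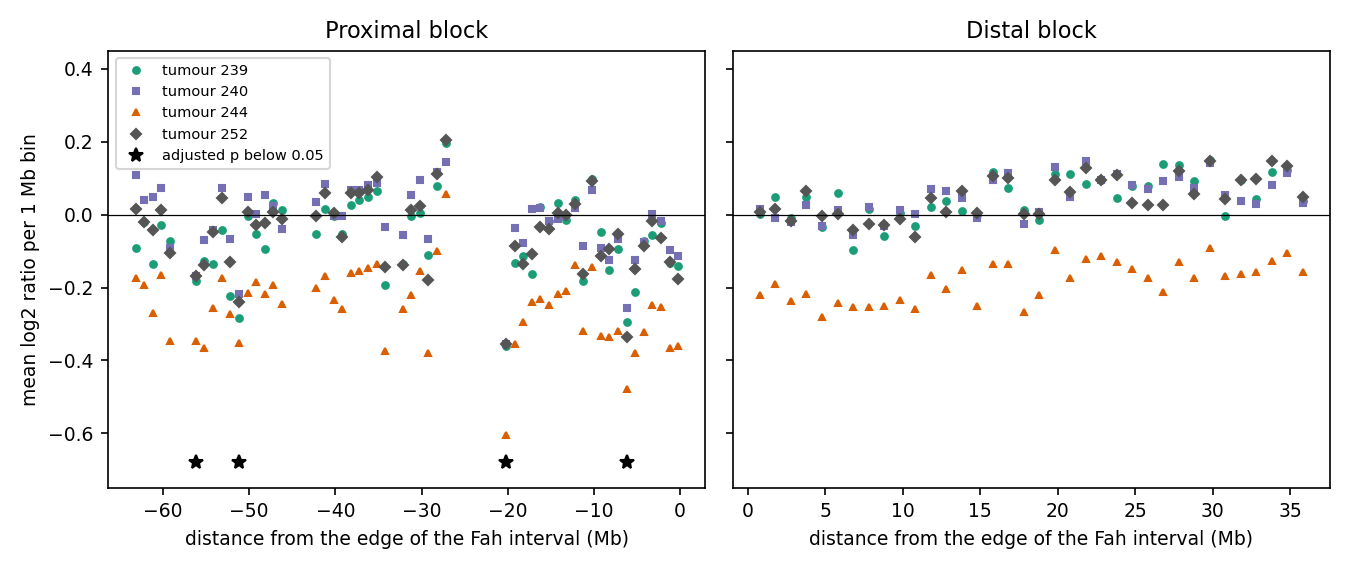
Mean log2 ratio per 1 Mb bin (y axis) against distance from the nearer edge of the Fah interval (x axis, Mb; negative on the proximal side), 1 symbol per tumour, with stars under bins at a limma adjusted p below 0.05. The stars mark 4 bins of the proximal block, and tumour 244 runs below the other tumours along both blocks.

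At the level of genes, 1049 gene names had at least 1 member probe. Limma over 18685 genes called 128 of them higher in the tumours (12.2%, against 17.7% of all genes) and 203 lower (19.4%, against 15.2% of all genes). Lower calls were 149 of 657 genes in the proximal block and 54 of 392 in the distal block. A gene with few probes was called more often: 202 of the 505 genes with 1 probe passed, and 4 of the 71 genes with 10 or more. These are 40.0% and 5.63%, against 43.2% and 16.6% of all genes with as many probes. Among the 331 genes with 3 or more probes, 17 were higher and 42 lower, or 5.14% and 12.7%, against 12.9% and 10.8% of all genes of that kind.

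Igf2, the fetal growth factor expressed from the paternal copy, was not above 0 in any tumour. Its probe read -0.046, -0.20, -0.24 and -0.22 in tumours 239, 240, 244 and 252. These averaged -0.18 ± 0.090 (SD, n = 4; limma adjusted p = 0.057). The adjusted p ran from 0.040 with GC correction to 0.71 over the alternatives. The 21 probes centred on it (chr7:149726178-150069145) averaged 0.015, -0.042, -0.27 and -0.0012 in the same tumours, so the 3 tumours other than 244 were near 0 across the locus. H19, the neighbouring maternally expressed RNA, was not analysed here.

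Ccnd1 read 0.29, -0.014, -0.17 and 0.16 in tumours 239, 240, 244 and 252, on both sides of 0. These averaged 0.066 ± 0.20 (SD, n = 4; limma adjusted p = 0.57). The 21 probes centred on it (chr7:152028049-152326501) averaged 0.012, -0.028, -0.25 and -0.023. Without tumour 239 the mean of the Ccnd1 probe was -0.0082, and with normexp it was 0.24 (limma adjusted p = 0.044). Fgf15 read 0.054, 0.071, -0.0064 and -0.12, on both sides of 0. The 21 probes centred on Fgf15 (chr7:151983538-152181795) averaged 0.13, 0.12, -0.063 and 0.12. No mean over 21 probes at Igf2, Ccnd1 or Fgf15 exceeded 0.13 in any tumour.

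Of the 11 genes of the distal imprinted cluster with probes, out of 17 listed, 2 were higher and 0 lower. Over all genes, 17.7% were called higher and 15.2% lower. At an unadjusted p of 0.05 the cluster had 5 higher and 1 lower. Trpm5, a cation channel of taste cells, averaged 0.27 ± 0.12 over 3 probes (SD, n = 4; limma adjusted p = 0.017), with 0.40, 0.17, 0.18 and 0.33 in tumours 239, 240, 244 and 252. Cars, the cysteinyl-tRNA synthetase, averaged 0.38 ± 0.17 over 4 probes (limma adjusted p = 0.010), with 0.32, 0.48, 0.16 and 0.55. Both were above 0 in all 4 tumours, tumour 244 included. Neither call held with normexp: Trpm5 was then lower, at -0.55 (limma adjusted p = 0.00050), and Cars averaged -0.013. Trpm5 also lost its call with lowess and without tumour 239 or 252, and Cars without tumour 240. The pool signal of 1 of the 4 Cars probes was well above background on no array, and the other 3 averaged 0.22 (limma adjusted p = 0.044). That of 1 of the 3 Trpm5 probes was well above background on 2 of 4 arrays only. The median over the 11 genes, 4 of them with 1 probe, was 0.18. It was 0.0016 over all 392 genes of the distal block and 0.023 over all genes tested. By tumour the median of the 11 genes was 0.32, 0.15, -0.072 and 0.23 in tumours 239, 240, 244 and 252. For all genes of the distal block it was 0.073, 0.046, -0.19 and 0.053. Kcnq1, the potassium channel gene with the most probes in the cluster, 30, had a mean of 0.0052 and did not pass.

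In the 11q13-like list, 11 of 14 genes had probes, and 2 were higher and 1 lower, against 17.7% and 15.2% of all genes. The list's median was 0.050. Nadsyn1, which makes NAD from its acid precursor, averaged 0.30 ± 0.049 over 3 probes (SD, n = 4; limma adjusted p = 0.0075), with 0.28, 0.29, 0.25 and 0.36 in tumours 239, 240, 244 and 252. Mrgprf and Fgf3, with 1 probe each, averaged 0.37 and -0.31 and were the other called genes. The genes with most probes here were Shank2, a synaptic scaffold gene, with 0.15 over 25 probes, and Ano1, a chloride channel often amplified with CCND1 in human tumours, with 0.14 over 16 probes; neither passed.

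**Figure D4:**
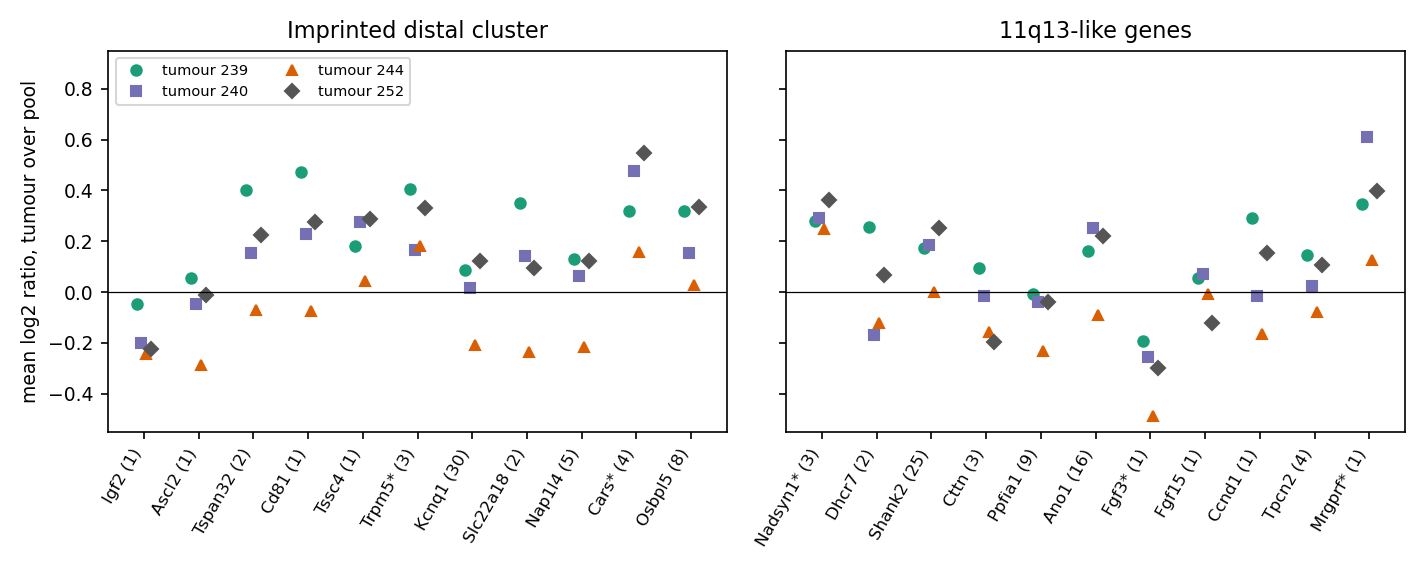
Mean log2 ratio of tumour over pool (y axis) for the genes of the distal imprinted cluster and of the 11q13-like list (x axis, in chromosome order, with the number of probes in brackets and a star at a limma adjusted p below 0.05), 1 symbol per tumour. Cars, Trpm5 and Nadsyn1 lie above 0 in all 4 tumours (with normexp, Trpm5 and Cars averaged -0.55 and -0.013), and Igf2 lies below 0 in all 4.

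The imprinted clusters of the proximal block held 0 genes called by limma, against 17.7% of all genes called higher and 15.2% called lower. They also held 0 at an unadjusted p of 0.05. In the Peg3 cluster, 4 of 5 genes had probes, with means from -0.033 to 0.072. In the 15q-like cluster all 7 had probes, with a list median of -0.10. Ube3a, the ubiquitin ligase gene, had the highest mean of the list, 0.030 over 8 probes.

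Among 17 growth and cell-cycle genes with probes, 2 were lower and 0 higher, against 15.2% and 17.7% of all genes. At an unadjusted p of 0.05 the counts were 4 and 2, and the list's median was -0.013. Bcl3, an IκB-family regulator of NF-κB, averaged -0.66 ± 0.31 over 2 probes (SD, n = 4; limma adjusted p = 0.0054), with -0.22, -0.71, -0.98 and -0.72 in tumours 239, 240, 244 and 252. Relb, an NF-κB subunit, averaged -0.38 ± 0.13 over 2 probes (limma adjusted p = 0.0060), with -0.24, -0.38, -0.55 and -0.35. Both lay below 0 in every tumour. With normexp the means were -0.22 and -0.097 and neither passed (limma adjusted p = 0.13 and 0.25). Ccne1, which encodes cyclin E1, Akt2, a kinase of insulin signalling, and Fgfr2, a growth factor receptor, averaged -0.14, 0.026 and -0.043 and did not pass.

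Of 14 p53, apoptosis and repair genes with probes, 5 were lower and 0 higher, against 15.2% and 17.7% of all genes (6 and 1 at an unadjusted p of 0.05), with a list median of -0.058. Rbbp6, a ubiquitin ligase that binds RB1 and p53, averaged -0.32 ± 0.12 over 3 probes (SD, n = 4; limma adjusted p = 0.011), with -0.28, -0.34, -0.48 and -0.18 in tumours 239, 240, 244 and 252; it lost its call without tumour 240. The other 4 called genes had 1 probe each. Of these, Bbc3, which encodes the p53 target Puma and was singled out after its value was seen, had the lowest mean, -0.72. Mgmt, the DNA repair gene with most probes of the list, 23, averaged 0.068 and did not pass.

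Of 14 xenobiotic genes with probes, 3 were lower and 0 higher, against 15.2% and 17.7% of all genes. At an unadjusted p of 0.05 the counts were 5 and 0, and the list median was -0.063. Cyp2b9 averaged -0.34 ± 0.12 over 3 probes (SD, n = 4; limma adjusted p = 0.0079), with -0.24, -0.33, -0.51 and -0.28 in tumours 239, 240, 244 and 252. Cyp2b23 averaged -0.24 ± 0.16 (limma adjusted p = 0.042), and Cyp2f2, which oxidises naphthalene, averaged -0.47 ± 0.21 (limma adjusted p = 0.0067). All 3 were below 0 in all 4 tumours. The Cyp2b genes are closely related tandem copies, so the probes of Cyp2b9 and Cyp2b23 may bind more than 1 of them. Whether the Cyp2f2 probes bind other genes was not tested. With normexp, Cyp2b9 averaged -0.13 and Cyp2f2 -0.067 and neither passed, Cyp2f2 also lost its call with lowess, at -0.25, and Cyp2b23 lost its call with centring on the mode and without any 1 of tumours 239, 240 and 244. Cyp2b10, the phenobarbital-induced member, averaged -0.078 and Cyp2e1, the ethanol-oxidising one in the distal block, 0.12; neither passed.

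Of 14 hepatocyte genes with probes, 2 were higher and 2 lower, against 17.7% and 15.2% of all genes, with a list median of 0.015. Acsm2, a mitochondrial medium-chain acyl-CoA synthetase gene, averaged -0.35 ± 0.17 over 5 probes (SD, n = 4; limma adjusted p = 0.012), with -0.13, -0.35, -0.54 and -0.38 in tumours 239, 240, 244 and 252. Gys1, muscle glycogen synthase, averaged 0.27 ± 0.22 over 2 probes (limma adjusted p = 0.049), with 3 of 4 tumours above 0. Acsm2 lost its call with normexp and without tumour 240, and Gys1 lost it with centring on the mode, with GC correction and without any 1 of tumours 239, 240 and 252. Apoc2, an activator of lipoprotein lipase, was singled out after its value was seen: its 1 probe had the lowest mean of the list, -0.97, with -0.79, -1.09, -1.11 and -0.91 in tumours 239, 240, 244 and 252. The other gene called higher, Hamp, which encodes the iron hormone hepcidin, rested on 1 probe whose pool signal was well above background on 0 of 4 arrays, so its ratio is only a bound and no fold is given.

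Tandem gene families of the region showed mixed calls, to be read against the 17.7% of all genes called higher, the 15.2% called lower and the 43.2% of all 1-probe genes called either way. Of 14 kallikrein (Klk) genes, each with 1 probe, 4 were higher and 4 lower, with means from -0.52 to 0.57. Of 11 Vmn2r vomeronasal receptor genes, 1 was lower. Of 13 Ceacam and Psg genes, 1 was higher and 2 lower, and of 11 Nlrp genes, 1 was higher and 2 lower. Of 71 zinc finger (Zfp) genes, 7 were higher and 12 lower, with a median of -0.020.

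The genes with 3 or more probes that departed most from 0 in the proximal block were mostly lower. Sult2a8, a hepatic sulfotransferase of bile acids, averaged -0.59 ± 0.071 over 4 probes (SD, n = 4; limma adjusted p = 0.00084), with -0.56, -0.55, -0.70 and -0.56 in tumours 239, 240, 244 and 252. Its SD was the smallest of the 5, and its call held under all 12 alternatives. ENSMUST00000086269 averaged -0.65 ± 0.14, Pla2g4c, a cytosolic phospholipase A2, -0.48 ± 0.20, and Rhpn2 -0.48 ± 0.12 over 6 probes; all were below 0 in all 4 tumours. Pou2f2, which encodes the B-cell factor Oct-2, averaged 0.48 ± 0.29 and was the only 1 of the 5 above 0. It had 0.076 in tumour 239 against 0.47 to 0.72 in the others, and lost its call with normexp and without tumour 240 or 244.

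In the distal block the same rule named 3 genes above 0 and 2 below. Itgad, the integrin αD gene, averaged 0.48 ± 0.15 (SD, n = 4; limma adjusted p = 0.0032), with 0.38, 0.60, 0.33 and 0.62 in tumours 239, 240, 244 and 252. Il4ra, the interleukin-4 receptor, averaged 0.35 ± 0.13, with 0.41, 0.26, 0.23 and 0.50, but with normexp it was lower, at -0.34 (limma adjusted p = 0.0031). The pool signal of 1 of its 3 probes was well above background on no array, and the other 2 averaged 0.41. Cars, described above, was the third. Srcap, the ATPase that places histone H2A.Z, averaged -0.45 ± 0.10 (limma adjusted p = 0.0026) and BC030336 averaged -0.42 ± 0.19; both were below 0 in all 4 tumours and under all 12 alternatives. Itgad lost its call with normexp (limma adjusted p = 0.065).

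Some single probes stood far from 0 in every tumour. At 1 log2 unit or more from 0 in all 4 tumours stood 47 probes, 39 low and 8 high. The low ones were 0.768% of the proximal and 0.476% of the distal probes. The probes on either side of 39 of the 47 averaged within 0.5 of 0, so most had ordinary neighbours. For 3 of them the tumour signal was not well above background on any array, and these have only a bound. The 22 with a gene name fell in 19 genes. Beside those described below they included Abcc6, Atp10a, Parva, Plekha7, Xpo6, Tcerg1l, Gm21276 and ENSMUST00000170929, each with 1 low probe.

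In Nell1, a secreted factor of bone formation, the probe at 57871812 read -2.80, -2.65, -3.11 and -2.68 in tumours 239, 240, 244 and 252, and the probe at 58005937 read -2.43, -2.32, -2.28 and -2.34. The gene as a whole averaged -0.15 over 93 probes and did not pass. In Luzp2, a leucine zipper protein gene, the probe at 62220250 read -2.27, -2.73, -3.29 and -3.07 and the gene averaged -0.17 over 46 probes. In each of these genes the single probes lay far below the gene as a whole. The Luzp2 probe was not low alone. It lies in a segment of 5 probes found in tumour 240 (chr7:62194209-62248962). Those 5 probes averaged -0.86, -1.01, -1.23 and -1.12 in tumours 239, 240, 244 and 252. Their medians were -0.79, -0.87, -0.64 and -0.80 in the same order.

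Xylt1, the xylosyltransferase that starts glycosaminoglycan chains, held probes of both signs. The probe at 124560719 read 2.46, 2.44, 1.81 and 2.20 in tumours 239, 240, 244 and 252. The probes at 124676042 and 124796689 averaged -2.77 ± 0.26 and -2.38 ± 0.18 (SD, n = 4), and the 30 probes of the gene averaged -0.12. The high and low probes thus stood within 1 gene and on every array. Tead1, a transcription factor of the Hippo pathway, held a high probe at 120007790, with 1.87, 1.51, 1.16 and 1.44. Its 23 probes averaged 0.20 ± 0.12 (limma adjusted p = 0.056) and passed only without tumour 244.

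Lone probes set the level of some genes. Snhg14, the host transcript of the Prader-Willi snoRNAs, averaged -0.71 over its 2 probes but -0.062 without the low one. Cyfip1, a subunit of the actin-regulating WAVE complex, averaged -0.21 with its low probe and -0.044 without it. Prmt3, an arginine methyltransferase, averaged -0.27 with its low probe, which was well above background in 1 tumour only, and -0.040 without it. Btbd10 averaged -0.32 with its low probe and -0.12 without it. Limma called all 4 genes lower with these probes and 0 of the 4 without them. Spint2, a serine protease inhibitor gene, averaged -0.45 with its low probe and 0.13 without it. Rps15a, a ribosomal protein gene with related copies elsewhere, averaged -0.98 on 2 probes with its low probe and -0.23 without it (limma adjusted p = 0.043).

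**Figure D5:**
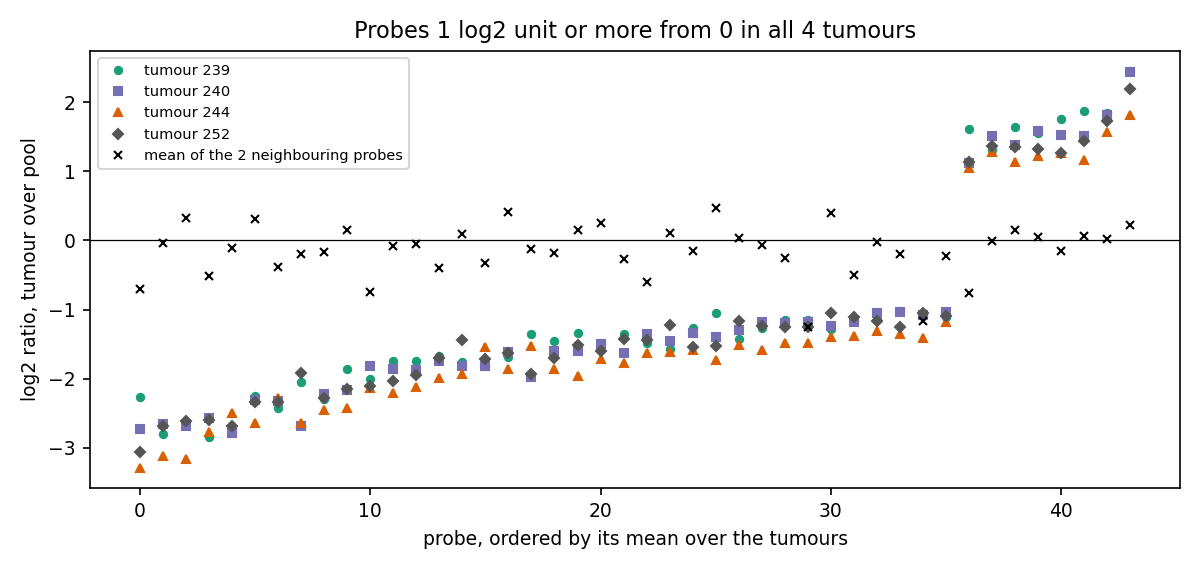
Log2 ratio of tumour over pool (y axis) for the 44 probes at 1 log2 unit or more from 0 in all 4 tumours with tumour signal well above background on at least 1 array (x axis, ordered by mean), 1 symbol per tumour, with crosses for the mean of the 2 neighbouring probes. The 4 tumours lie close together at each probe, and the crosses mostly lie within 0.5 of 0.

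Tumours also differed at some single probes. After each block's median was taken out, the SD between tumours had a median of 0.13 per probe in both blocks, against an SD of 0.38 between probes of the proximal block and 0.34 between probes of the distal block. The range between tumours was 1 log2 unit or more at 35 members, 17 proximal and 18 distal. In 4 probes 1 tumour stood 1 log2 unit or more from the nearest other tumour. The probe at 66458812 read -2.25 in tumour 244, against 0.092, 0.017 and -0.037 in tumours 239, 240 and 252. The probe at 134611192 read -1.61 in tumour 244, against 0.16, -0.076 and -0.14 in tumours 239, 240 and 252. A probe in Ldhc, the testis lactate dehydrogenase gene, read -0.94 in tumour 240, against 0.53, 0.83 and 0.12 in tumours 239, 244 and 252. The fourth, at 128528873, was not well above background on every array. Each of these was 1 probe, with no second probe or replicate array to check it.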

How the data were processed

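Tumour DNA (Cy5) and pooled liver DNA (Cy3) were hybridised on 2-colour Agilent mouse arrays, per the labels, with no dye swap. The submitters' processing notes name Agilent Feature Extraction 12.0.0. Its processed intensity of each colour is background-subtracted and dye-normalised, per the file headers. The raw mean and background intensity columns are scanner brightness, per the file headers. Tumour is on top in the deposited log10 ratio. The authors' value table repeats that log10 ratio without centring. Other columns, such as the spot flags, mark outliers and signal above background, per the file headers.

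After removal of control spots and flagged outliers, replicate spots were averaged per probe. Each array's log2 ratio was then centred on its autosomal median. Positions are mm9; of 1049 gene names on members, 896 were current symbols and 33 older ones in a RefSeq table of GRCm38.p6, used for names only, and 120 kept the files' name. Segments had at least 5 probes, with neighbours closer than 0.1 merged. Limma 3.58.1 (R 4.3.3, intercept only, Benjamini-Hochberg over all features) tested genes and 1 Mb bins holding 5 probes or more, and was checked on simulated data. Levels of blocks were tested with exact sign-flip tests over 4 tumours. Precision is limited by having 4 arrays, and p-values measure the spread between tumours only. Python 3.11.15, numpy 2.4.6, pandas 2.3.3, scipy 1.17.1 and matplotlib 3.10.9 were used.

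The members, gene lists and tests were chosen with earlier results of these data known. The rule for named genes took Igf2, H19 and Ccnd1; list genes past the threshold with at least 2 probes; per block the 5 genes of largest mean with at least 3 probes and 1 sign in all tumours; genes at segment edges; and genes with a probe at 1 log2 unit or more from 0 in all tumours. Stretches named for human arms ran between anchor genes; Deaf1 served as the first anchor of the 11p15.5-like stretch in place of Hras. Alternatives were centring on the mode of running medians of 51 probes, normexp with an offset of 50, the authors' value table, probes above background, lowess, GC correction, medians, drawn-in outliers, other thresholds, segment and bin sizes, robust limma and leaving out each tumour. Leaving out probes extreme in all tumours was added after the data were seen. 1 gene that the rule named is not reported here.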

Additional observations from a re-analysis of the deposited data

Results flagged for a closer look

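Tumour 244 stood apart from the other 3 tumours in 14 of 54 results for which the 4 values were compared by Dixon's gap test (critical value 0.829), and it was the lowest value each time. No other tumour stood apart. Chance flags about 1 in 20 groups. Blocks, stretches, bins and windows share probes and 1 zero line per array, so the 14 are not separate findings and cannot be set against that rate. The mean of tumour 244 was -0.21 for chromosome 7 outside the Fah interval, -0.18 for the distal block and -0.21 for the difference from the other autosomes. Among stretches it had -0.27 in the proximal 11p-like, -0.29 in the 15q-like, -0.23 in the distal 11p-like, -0.21 in the 16p-like, -0.14 in the 10q26-like and -0.099 in the 11q13-like stretch. The 21 probes around Ccnd1 averaged -0.25 in it. In the bins from 10000001 and 46000001 it had -0.35 and -0.61. Among genes it had -0.70 for Sult2a8 and 0.011 for Tead1. The level of the zero line on that array moved with these values: the mode of its autosomal probes lay 0.105 above the median used. Its part in these results was not tested.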

How the results depend on the processing

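Distal minus proximal stayed above 0 in all 4 tumours under 9 of 9 alternatives that kept every tumour, and outside minus inside the interval under 9 of 10. Among these, centring on the mode shifts a whole array and cannot change a difference within it. The authors' value table repeats the same ratio, so it could hardly change these differences either. The exact test cannot pass 0.05 with 4 tumours, so its p says nothing about stability. Leaving out tumours in turn, the mean over both blocks ran from -0.065 to 0.013, that of the distal block from -0.029 to 0.048 and the difference from the other autosomes from -0.057 to 0.027, each above 0 only without tumour 244. Bins called ran from 0 to 15 higher and 0 to 17 lower, and genes called from 64 to 152 higher and 124 to 204 lower, fewest without tumour 240 in each direction. The Ccnd1 mean ran from -0.0082 without tumour 239 to 0.14. Normexp gave 1 bin higher and 14 lower, 314 genes lower, a mean of -0.10 for the 11p15.5-like stretch, -0.55 for Trpm5, -0.013 for Cars and -0.34 for Il4ra. It called 14.7% of all bins and 43.0% of all genes, against 13.1% and 32.8% in the setting reported. Of the 331 genes called, 176 were also called with normexp. Lowess gave 1 bin higher. Leaving out probes extreme in all tumours gave 2 bins lower and turned Spint2 to 0.13, and bins of 5 Mb gave 0 lower. Centring on the mode gave 84 genes higher. The share of distal probes of tumour 244 called lost rose to 100% under normexp, lowess, mode centring or a threshold of 0.1. The cause of these changes was not tested. No paired analysis was possible because each tumour shares its array with the same pool and no second group carries its number.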
